A study of Mus musculus with 6 samples.

Results

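The troponin genes encode the calcium switch of the sarcomere, and in ATAC-seq of mouse limb muscle nuclei the chromatin at the starts of the fast genes was several times more open than at the starts of the slow and cardiac genes. The set comprised 8 genes, found by symbol among the 49366 transcription start site (TSS) windows counted in the study. They were the fast genes Tnni2, Tnnt3 and Tnnc2, the slow genes Tnni1, Tnnt1 and Tnnc1, and the cardiac genes Tnni3 and Tnnt2, that is 3, 3 and 2 genes. All 8 had a window that passed the filter on low counts of the table.

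ATAC-seq uses a transposase that cuts accessible DNA, so the number of reads in a region measures how open its chromatin is. Nuclei were sorted for PCM1, a protein on the envelope of muscle fibre nuclei, from the gastrocnemius and tibialis anterior (TA) of male C57BL/6J mice aged 8 weeks. One limb had received an AAV6 vector with an shRNA against Yap (Yap-shRNA) and the other limb a vector with an shRNA against the bacterial gene LacZ (LacZ-shRNA), and both were collected 28 days later. Each group had 3 replicates, and every replicate was a pool of 4 gastrocnemius muscles together with 4 TA muscles. Both groups therefore carried an AAV6 vector with an expressed hairpin, and the pools mix the fibre types of both muscles. Yap is a transcriptional co-activator that works with TEAD factors, and the comparison addressed whether its knockdown changes the chromatin of muscle fibre nuclei.

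Troponin sits on the thin filament as a complex of 3 subunits. Troponin C binds calcium, troponin I blocks the interaction of actin and myosin at rest, and troponin T ties the complex to tropomyosin. Fast and slow fibres use separate genes for each subunit, heart muscle uses its own troponin I and T, and the slow troponin C is also the cardiac one. Several of these genes lie as pairs of a troponin I and a troponin T gene on one chromosome, and M-CAT elements, which bind TEAD factors, are well known from the cardiac troponin T promoter.

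The 6 libraries held between 3326803 and 10319467 counts over all windows, and the smallest was LacZ-shRNA replicate 2. A window covers 1 kb to each side of every annotated start of a gene, so genes with scattered starts have long windows. Levels are therefore given as CPM, read counts normalised to library size, per kilobase of window (CPM per kb) when genes are compared. Windows of 1036 olfactory receptor (Olfr) genes, which muscle does not use, served as a reference for closed chromatin. Their median was 3.15 CPM per kb, and 95% of them were below 5.28. This closed level was 4.27 in LacZ-shRNA replicate 1 and 2.72 to 3.16 in the other 5 libraries. That library stood apart in this level, and the changes with Yap-shRNA and the correlations between members are also given without it. The groups differed in another measure, the total count over peaks as a share of that over windows. It was 70.4, 77.8 and 76.6% in the LacZ-shRNA libraries and 68.8, 64.9 and 68.2% in the Yap-shRNA libraries, without overlap. The part of this difference in the changes with Yap-shRNA was not tested. An shRNA acts on RNA, so the window of Yap1 does not check the labels. It held 12.1, 16.7 and 14.1 CPM in the LacZ-shRNA libraries and 14.7, 16.5 and 12.1 CPM in the Yap-shRNA libraries, with overlapping groups. The sorted cell type was checked on other genes. A list of fast fibre genes had a median of 17.2 CPM per kb and a list of thin filament genes 11.7. The first ran from 4.10 (Myh1) to 61.0 for Atp2a1, the calcium pump of fast fibres. The second ran from 4.53 (Actc1) to 34.3 for skeletal actin Acta1. The lists of other cell types had medians of 3.92 (fibroblast), 5.27 (leukocyte), 5.33 (satellite cell), 5.97 (endothelial) and 6.48 (smooth muscle). These medians lay from near the closed level to somewhat above its 95th percentile. Single genes of those lists reached 12.3 (Sdc4, satellite cell) and 15.0 (Smtn, smooth muscle). Windows that overlap that of another gene may read too low, which limits this check. They made up 4 of 8 fibroblast, 2 of 7 leukocyte, 2 of 8 satellite cell and 2 of 8 endothelial genes. In the muscle lists they made up 5 of 10 fast fibre and 3 of 10 thin filament genes.

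The fast genes were the most open members in each of the 6 libraries. Tnni2, fast troponin I, lies at chr7:142441808-142444410 (GRCm38, plus strand) and its window had the highest level of the set. The LacZ-shRNA libraries read 46.9, 60.5 and 67.6 CPM per kb and the Yap-shRNA libraries 53.6, 48.5 and 54.3, so the groups overlapped. Tnnc2, fast troponin C (chr2:164777161-164779967, minus strand), read 34.1, 44.9 and 43.6 CPM per kb with LacZ-shRNA and 45.8, 35.7 and 35.9 with Yap-shRNA. Tnnt3, fast troponin T (chr7:142498836-142516009, plus strand), read 28.0, 40.7 and 39.7 CPM per kb with LacZ-shRNA and 35.8, 33.6 and 37.4 with Yap-shRNA. All 3 fast genes were lowest among the LacZ-shRNA libraries in replicate 1, the library with the raised closed level. The mean levels of Tnni2, Tnnc2 and Tnnt3, 55.2, 40.01 and 35.9 CPM per kb, were 17.5, 12.7 and 11.4 times the Olfr median. Each lay above 99.8% of the 39022 windows that overlap no other window.

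The slow and cardiac genes formed a low and tight group. Tnni1, slow troponin I (chr1:135779434-135810989, plus strand), read 7.06, 8.70 and 7.27 CPM per kb with LacZ-shRNA and 9.28, 9.10 and 9.15 with Yap-shRNA. Tnnt1, slow troponin T (chr7:4504570-4516382, minus strand), read 5.73, 6.18 and 6.93 with LacZ-shRNA and 6.08, 6.59 and 7.05 with Yap-shRNA. Tnnc1, troponin C of slow and heart muscle (chr14:31208312-31211729, plus strand), read 7.34, 9.35 and 6.88 with LacZ-shRNA and 6.45, 7.002 and 8.14 with Yap-shRNA. The window of Tnnc1 overlaps that of Nisch, and reads of the shared stretch may have been split between them or left out. Its values are therefore uncertain and may be too low. This window also rests on the fewest reads, 59 to 152 per library, against 1024 to 2906 for Tnnt3. The cardiac genes lay in the same range. Tnni3, cardiac troponin I (chr7:4518305-4524229, minus strand), read 6.35, 6.14 and 7.61 CPM per kb with LacZ-shRNA and 5.87, 7.46 and 6.43 with Yap-shRNA. Tnnt2, cardiac troponin T (chr1:135836354-135852260, plus strand), read 5.22, 7.76 and 6.74 with LacZ-shRNA and 8.16, 7.88 and 8.19 with Yap-shRNA.

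**Figure D1:**
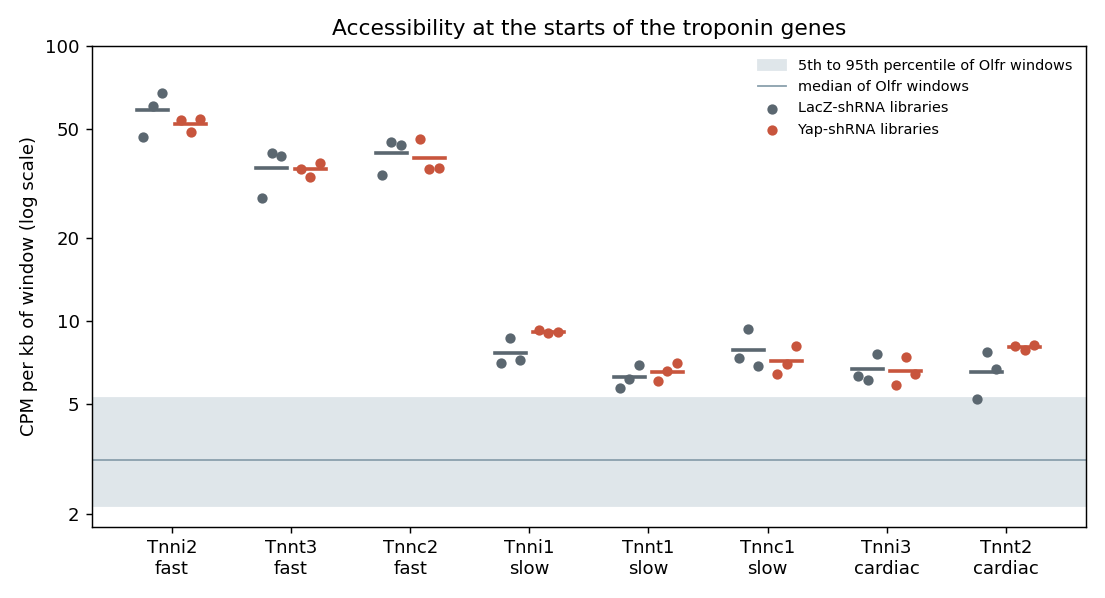
Level of each troponin window in CPM per kb on a log axis, one point per library, with the mean of each group as a bar. The line and band give the median (3.15) and the 5th to 95th percentile of Olfr windows. The 3 fast genes lie between 28.0 and 67.6 CPM per kb and the other 5 genes between 5.22 and 9.35.

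These low levels were still above closed chromatin. The means of the 5 slow and cardiac genes ran from 6.42 CPM per kb for Tnnt1 to 8.43 for Tnni1, 2.04 to 2.67 times the Olfr median. Every one of them exceeded at least 98.7% of the Olfr windows, but among all non-overlapping windows they ranked only at percentiles 73.5 (Tnnt1) to 86.2 (Tnni1). Within single libraries the ratio to the Olfr median was as low as 1.22, for Tnnt2 in LacZ-shRNA replicate 1. The order of the mean levels was Tnni2, Tnnc2, Tnnt3, Tnni1, Tnnc1, Tnnt2, Tnni3 and Tnnt1. Among neighbours in that order, Tnni2 and Tnnc2 did not overlap over the libraries, nor did Tnnt3 and Tnni1, while the other 5 neighbouring pairs did. The step from Tnnt3 to Tnni1 was the wide one, and in each library the lowest fast gene was 3.69 to 5.22 times the highest of the other genes. The mean over the fast genes was 5.19 to 7.17 times the mean over the slow genes, and the mean over the slow genes was 0.979 to 1.16 times that over the cardiac genes.

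Each fast gene was then set against the slow gene of the same subunit within every library, which removes differences of depth between libraries. Differences are on the log2 scale of CPM per kb with a prior count of 2, and 5 pairs were tested by a two-sided exact sign-flip permutation test over the 6 libraries. For troponin I, Tnni2 exceeded Tnni1 by 2.73, 2.79 and 3.21 in the LacZ-shRNA libraries and by 2.53, 2.41 and 2.57 in the Yap-shRNA libraries. The mean difference was 2.71 ± 0.28 (SD, n = 6), that is 6.53-fold. For troponin T, Tnnt3 exceeded Tnnt1 by 2.28, 2.71 and 2.51 with LacZ-shRNA and by 2.55, 2.34 and 2.40 with Yap-shRNA. The mean was 2.47 ± 0.16 (SD, n = 6), or 5.53-fold. For troponin C, Tnnc2 exceeded Tnnc1 by 2.20, 2.25 and 2.64 with LacZ-shRNA and by 2.80, 2.33 and 2.12 with Yap-shRNA. The mean was 2.39 ± 0.27 (SD, n = 6), or 5.24-fold. This value may be too large, because the Tnnc1 window overlaps that of Nisch and may read too low. The size depends on the scale. For whole windows, not divided by length, the 3 differences were 1.62, 2.49 and 2.53, and after subtraction of the closed level from CPM per kb they were 3.34, 3.37 and 3.07. All 3 differences had the same sign in 6 of 6 libraries. The exact permutation p was 0.03125 for each, the smallest that 6 libraries allow, and 0.0521 after adjustment over the 5 pairs. The test treats the 6 libraries as independent, although the 2 vectors went to opposite limbs.

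Differences between slow and cardiac partners were smaller. Tnni1 differed from Tnni3 by 0.15, 0.50 and -0.07 with LacZ-shRNA and by 0.66, 0.28 and 0.50 with Yap-shRNA. It was higher in 5 of 6 libraries, with a mean of 0.34 ± 0.27 (SD, n = 6) and an exact permutation p of 0.0625, adjusted p = 0.0781. For whole windows, not divided by length, it was 0.72, with an exact permutation adjusted p of 0.0391. That value includes the longer window of Tnni1, 8.435 kb against 6.466 kb for Tnni3. With the closed level subtracted per kb the difference was 0.58, with an exact permutation adjusted p of 0.0781. Tnnt1 differed from Tnnt2 by 0.13, -0.33 and 0.04 with LacZ-shRNA and by -0.43, -0.26 and -0.22 with Yap-shRNA. The mean was -0.18 ± 0.22 (SD, n = 6), with an exact permutation p of 0.125 before and after adjustment. This sign turned when whole windows were compared without division by length (0.17), and was kept when the closed level was subtracted per kb (-0.24).

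**Figure D2:**
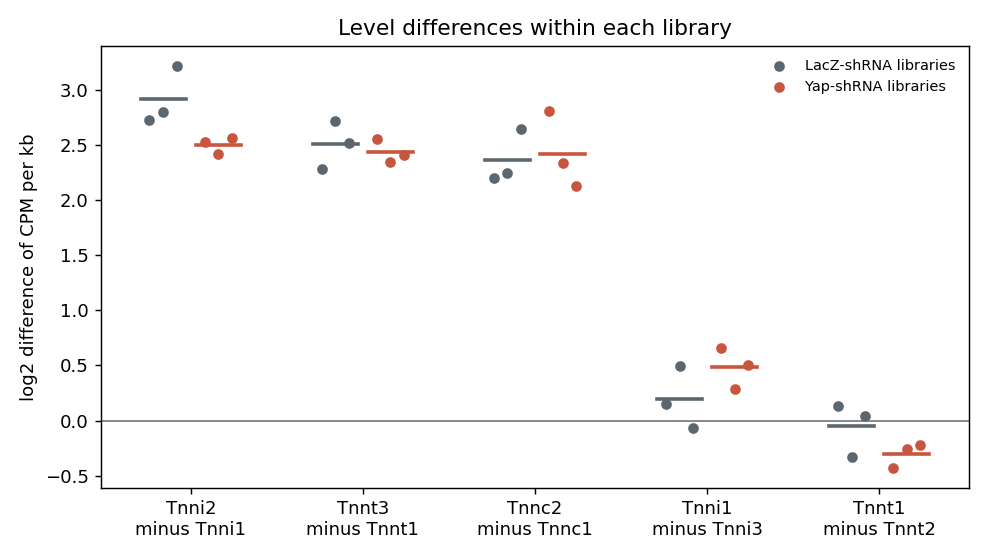
Log2 difference of CPM per kb between paired troponin genes within each library, one point per library, with the group means as bars. The 3 fast minus slow differences lie between 2.12 and 3.21, and the 2 slow minus cardiac differences between -0.43 and 0.66.

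The peak table gave a different picture of the same loci. Tnnc2 was the only member with a peak over an annotated start (chr2:164776090-164780766), and that peak of 4677 bases also overlaps Ube2c. Tnnc1 had a peak 786 bases upstream of its start (chr14:31205450-31207526), inside Nisch, and another 3683 bases downstream of the gene. Tnni1 had a peak 1837 bases upstream of its first start and another in an intron, and Tnnt1 had one 2062 bases downstream, in Ppp1r12c. These were the 6 peaks within 5 kb of a member. None of the peaks of the table used here lay within 5 kb of Tnni2, Tnnt3, Tnni3 or Tnnt2, although Tnni2 and Tnnt3 were among the 3 most open members. The nearest peaks were 16.3 and 15.4 kb away from Tnni2 and Tnnt3. Such windows were not rare. Of the 28 non-overlapping windows with at least the level of Tnni2, 12 (42.9%) held no peak of the table, and of the 68 with at least the level of Tnnt3, 18 (26.5%) held none. The peaks in the table are numbered up to 42162, and 6065 numbers are absent from it.

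**Figure D3:**
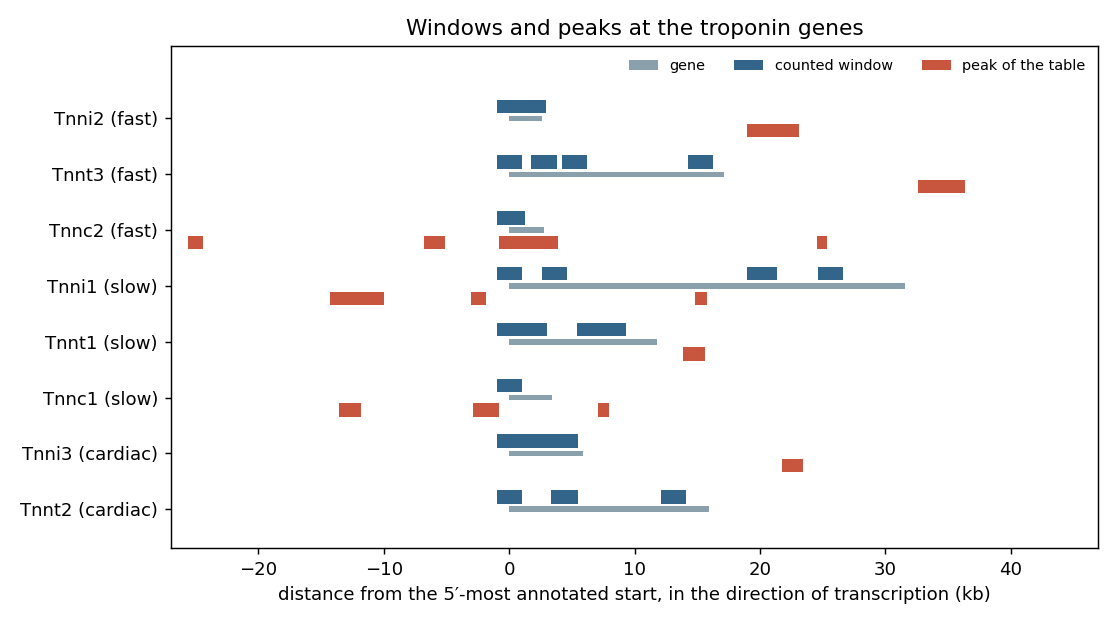
Gene bodies, counted windows and peaks of the table within 25 kb of each troponin gene, by distance in kb from its 5′-most annotated start in the direction of transcription. A peak covers a start at Tnnc2 alone, and none of the drawn peaks touches the windows of Tnni2 or Tnnt3.

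The promoters of troponin C are shown because a peak lay over the start of Tnnc2 and none over that of Tnnc1. The peak 786 bases upstream of Tnnc1 did reach into its counted window. Both sequences are RefSeq promoters of GRCm38.p6, 250 bases before to 50 bases after the start. Of the 8 members 6 had an entry, with no entry for Tnni2 and Tnnt3. Capitals mark E-boxes (CANNTG, which reads the same on both strands), and M-CAT elements (CATTCC) on either strand.
Tnnc2, chr2:164779685-164779984, minus strand: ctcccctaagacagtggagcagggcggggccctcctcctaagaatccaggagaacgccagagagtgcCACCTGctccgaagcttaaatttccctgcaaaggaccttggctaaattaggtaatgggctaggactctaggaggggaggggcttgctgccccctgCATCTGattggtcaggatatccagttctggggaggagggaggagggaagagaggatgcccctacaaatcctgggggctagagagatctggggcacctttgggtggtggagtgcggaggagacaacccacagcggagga
Tnnc1, chr14:31208062-31208361, plus strand: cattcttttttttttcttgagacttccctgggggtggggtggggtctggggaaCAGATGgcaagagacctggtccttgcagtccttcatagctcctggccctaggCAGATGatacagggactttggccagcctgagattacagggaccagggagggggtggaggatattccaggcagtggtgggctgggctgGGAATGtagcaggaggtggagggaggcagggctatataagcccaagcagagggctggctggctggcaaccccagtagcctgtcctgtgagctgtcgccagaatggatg
The Tnnc2 promoter lay within the peak over its full 300 bases, whereas the Tnnc1 promoter lay 535 bases beyond the end of its nearest peak. Each held 2 E-boxes, at -183 and -88 in Tnnc2 and at -197 and -145 in Tnnc1, counted from the start. The Tnnc1 promoter also held 1 M-CAT match on the minus strand, beginning at -58. E-boxes occur in 72.3% and M-CAT matches in 14.7% of the 32851 promoters in the table. Tnnc2 had 5 CpG and Tnnc1 had 1, against a median of 7 over all promoters.

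None of the 8 windows changed with Yap-shRNA at an adjusted p under 0.05 by edgeR's quasi-likelihood test. DESeq2, which gave no adjusted p for Tnnc1, called none of the others. Over all windows 0.0223% were called, so 0 of 8 does not set the troponin genes apart from the rest. One member, Tnnt2, had an unadjusted p under 0.05, a threshold that 4.9% of all windows passed. Of the 8, 3 had a fold change above 1 and 5 below it, and the median log2 fold change was -0.03, beside -0.01 over all windows.

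The 2 members whose groups did not overlap were Tnnt2 and Tnni1, and 10.1% of all windows had groups that did not overlap. Tnnt2 held 32.6, 48.4 and 42.0 CPM over its window with LacZ-shRNA and 50.9, 49.2 and 51.1 CPM with Yap-shRNA. All 3 Yap-shRNA libraries were above all 3 LacZ-shRNA libraries, though LacZ-shRNA replicate 2 came within 1 CPM of them. The log2 fold change was 0.31 ± 0.14 (SE), with an unadjusted edgeR p of 0.0329 and an adjusted p of 0.946. Tnni1 held 59.5, 73.4 and 61.3 CPM with LacZ-shRNA and 78.3, 76.7 and 77.2 CPM with Yap-shRNA, again with LacZ-shRNA replicate 2 nearest to the Yap-shRNA libraries. Its log2 fold change was 0.27 ± 0.13 (SE), with an unadjusted edgeR p of 0.05003, just above the threshold, and an adjusted p of 0.946. Without LacZ-shRNA replicate 1, the library with the raised closed level, the log2 fold changes were 0.18 for Tnnt2 and 0.22 for Tnni1. In bulk nuclei, a site open in more nuclei and a site opened further in each nucleus cannot be told apart.

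Tnni1 and Tnnt2 are neighbours, 25.4 kb apart on chromosome 1, with Lad1 between them. Their log2 CPM varied together over the 6 libraries (Pearson r = 0.92, and 0.99 without LacZ-shRNA replicate 1, a description over libraries that differ in depth and closed level). Lad1 had r = 0.82 with Tnni1 and 0.68 with Tnnt2. On other chromosomes, Lsp1, Ube2c, Prr33 and Nisch had r = 0.88, 0.84, 0.80 and 0.77 with Tnnt2. With Tnni1 they had 0.71, 0.70, 0.54 and 0.57. A high r with Tnnt2 was therefore not particular to its neighbours. Lad1 had 8.40 CPM per kb and a log2 fold change of 0.19 ± 0.14 (SE), with overlapping groups and an edgeR adjusted p of 0.949. The promoters of this pair are shown as those of the members with separate groups, with capitals as above.
Tnni1, chr1:135799171-135799470, plus strand: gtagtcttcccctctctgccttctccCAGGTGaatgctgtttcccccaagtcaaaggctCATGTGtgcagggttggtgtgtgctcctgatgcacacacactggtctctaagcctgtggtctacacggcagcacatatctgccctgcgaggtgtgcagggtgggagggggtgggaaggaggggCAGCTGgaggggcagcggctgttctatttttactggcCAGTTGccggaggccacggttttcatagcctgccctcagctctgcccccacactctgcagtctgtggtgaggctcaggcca
Tnnt2, chr1:135836084-135836383, plus strand: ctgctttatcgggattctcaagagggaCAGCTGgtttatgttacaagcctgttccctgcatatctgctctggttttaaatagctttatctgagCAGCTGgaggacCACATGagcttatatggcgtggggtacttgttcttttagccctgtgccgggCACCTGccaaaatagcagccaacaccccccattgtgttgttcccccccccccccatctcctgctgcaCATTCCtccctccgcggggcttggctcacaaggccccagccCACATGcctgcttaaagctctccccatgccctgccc
The Tnni1 promoter shown lies inside the annotated gene, whose first start is at chr1:135779434. It lies 3986 bases beyond the end of the intron peak (chr1:135794269-135795184). The Tnnt2 promoter held an M-CAT match on the plus strand, beginning at -27, and 5 E-boxes, while the Tnni1 promoter held 4 E-boxes and no M-CAT match. A second Tnni1 entry and a second Tnnt2 entry each held 2 E-boxes and no M-CAT match. Among the other entries, Tnnt1 held 2 E-boxes and a TATAAA box at -30, a motif found in 13.6% of all promoters, and Tnni3 held 1 E-box. None of the 8 entries held a MEF2 or a CArG match, which occur in 3.19% and 1.63% of all promoters.

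The other 6 members had intervals on both sides of no change. Tnni2 held 186, 240 and 268 CPM with LacZ-shRNA and 213, 193 and 215 CPM with Yap-shRNA, which is -0.16 on the log2 scale (95% interval -0.46 to 0.14), at an adjusted p of 0.951 in edgeR. LacZ-shRNA replicate 1 was the lowest library, and without it the value was -0.31, with an edgeR adjusted p of 0.190. Without LacZ-shRNA replicate 3, the highest library, it was -0.04, with an edgeR adjusted p of 0.961. Over all alternatives the adjusted p of Tnni2 ran from 0.190 to 1.00. The intervals were -0.33 to 0.29 for Tnnt3, -0.34 to 0.23 for Tnnc2, -0.21 to 0.33 for Tnnt1, -0.44 to 0.26 for Tnnc1 and -0.32 to 0.24 for Tnni3. On the linear scale these 6 intervals lay between 0.726-fold (the lower end for Tnni2) and 1.26-fold (the upper end for Tnnt1). Without LacZ-shRNA replicate 1 the log2 fold changes were -0.18 for Tnnt3, -0.18 for Tnnc2, -0.02 for Tnnt1, -0.11 for Tnnc1 and -0.10 for Tnni3, none of them called by edgeR. The signs of Tnnt3, Tnnc2 and Tnni3, all slightly negative, turned positive when libraries were scaled by their totals alone.

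**Figure D4:**
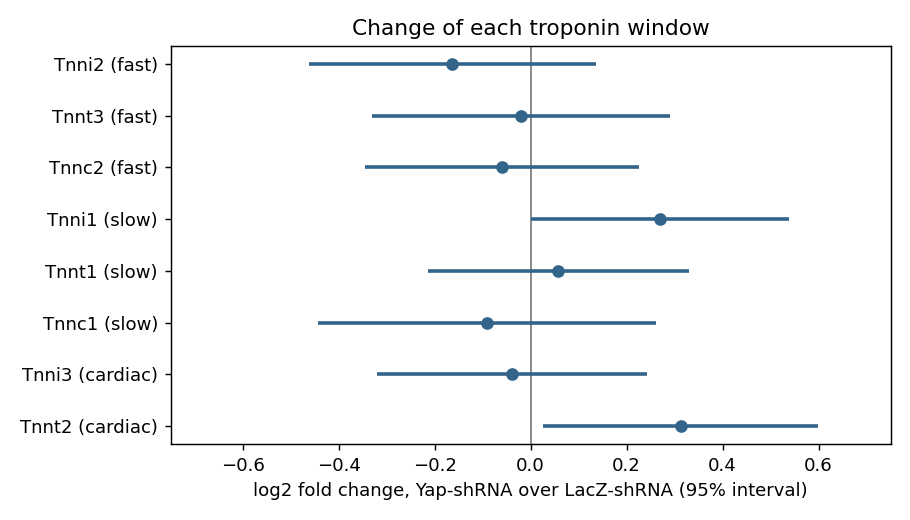
Log2 fold change of each troponin window, Yap-shRNA over LacZ-shRNA, with its 95% interval from edgeR. The interval of Tnnt2 (0.03 to 0.60) lies above 0 and the lower end of the Tnni1 interval is at 0, while the other 6 cross 0.

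Whether Yap-shRNA changed the balance of fast and slow genes was asked by comparing the within-library differences between the groups. With 3 libraries against 3, the exact permutation test cannot go below p = 0.1. The difference of Tnni2 over Tnni1 was 2.91 ± 0.26 (SD, n = 3) with LacZ-shRNA and 2.50 ± 0.08 (SD, n = 3) with Yap-shRNA, a shift of -0.41. The 3 Yap-shRNA libraries were all below the 3 LacZ-shRNA libraries, and the exact permutation p was 0.1, the smallest possible, or 0.5 over the 5 pairs. The troponin T and troponin C pairs shifted by -0.07 and 0.06, each with an exact permutation p of 0.7 and with overlapping groups, and both shifts turned sign when LacZ-shRNA replicate 2 was left out. The slow over cardiac pairs shifted by 0.29 for Tnni1 over Tnni3 and by -0.25 for Tnnt1 over Tnnt2, with exact permutation p-values of 0.2 and 0.3. With the closed level subtracted the shifts of the 3 fast over slow pairs were -0.71, -0.35 and 0.02 for troponin I, T and C, and those of the slow over cardiac pairs 0.44 and -0.56, each with an exact permutation adjusted p of 0.375 or above.

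The 6 peaks within 5 kb were tested in the same way. None passed an adjusted p of 0.05 in edgeR or DESeq2, none had an unadjusted p under 0.05, and none of the 13 peaks within 25 kb was called. Over all peaks 0.618% were called and 8.9% had an unadjusted p under 0.05. The peak over Tnnc2 held 178, 191 and 192 CPM with LacZ-shRNA and 228, 186 and 183 CPM with Yap-shRNA. The log2 fold change of this peak was 0.09 (SE 0.14), at an adjusted p of 0.933 in edgeR, and that of the Tnnc2 window, which it largely covers, was -0.06. The peak upstream of Tnnc1 held 47.4, 53.1 and 51.6 CPM with LacZ-shRNA and 47.2, 54.3 and 55.7 CPM with Yap-shRNA, which gives 0.05 on the log2 scale (SE 0.12), at an adjusted p of 0.965 in edgeR. The other 4 peaks had log2 fold changes from -0.12 (downstream of Tnnt1) to 0.21 (upstream of Tnni1).

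The other pair of neighbours with a gap of some length, Tnni2 and Tnnt3, lie 54.4 kb apart on chromosome 7 with Lsp1 and Prr33 between them. Prr33 was within the range of the fast troponins, at 44.1 CPM per kb (32.6 to 50.9 over the libraries), and Lsp1, an actin-binding protein of leukocytes, had 15.1 (11.7 to 17.4). Tnni2 and Tnnt3 varied together over the 6 libraries (r = 0.86), as did Tnni2 and Tnnc2 (r = 0.73), which are on separate chromosomes. Tnnt1 and Tnni3 lie only 1.92 kb apart and had r = 0.59. Without LacZ-shRNA replicate 1 these r were 0.89, 0.61 and 0.64. These correlations describe libraries that differ in depth and closed level.

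Other genes of the contractile apparatus gave the setting. Of the 10 thin filament genes, 9 lay above the 95th percentile of the Olfr windows, with a median of 11.7 CPM per kb and a range from 4.53 for the cardiac actin Actc1 to 34.3 for Acta1. The tropomyosin genes Tpm1 and Tpm2 had 27.8 and 29.7. Of the 10 fast fibre genes 9 lay above that percentile, with a median of 17.2. The list ran from 4.10 for the fast myosin Myh1 to 61.0 for Atp2a1, and the fast myosin Myh2, at 5.28, was level with the percentile. The 3 fast troponins, at 35.9 to 55.2, were in the upper part of this range. Mybpc2, fast myosin binding protein C, had 35.8, and Myh4, the myosin of the fastest fibres, had 14.9. The 8 slow fibre genes had a median of 5.99, with 5.89 for the slow myosin Myh7 and 11.1 for the calcium pump Atp2a2. The 10 heart muscle genes had a median of 6.41, from 4.33 for Ryr2 to 9.40 for the atrial light chain Myl7. The slow and cardiac troponins, at 6.42 to 8.43, were within the range of the slow fibre and heart lists. They were equally within that of the smooth muscle list (4.20 to 15.0) and the satellite cell list (1.29 to 12.3), so this level was not particular to slow or heart genes.

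**Figure D5:**
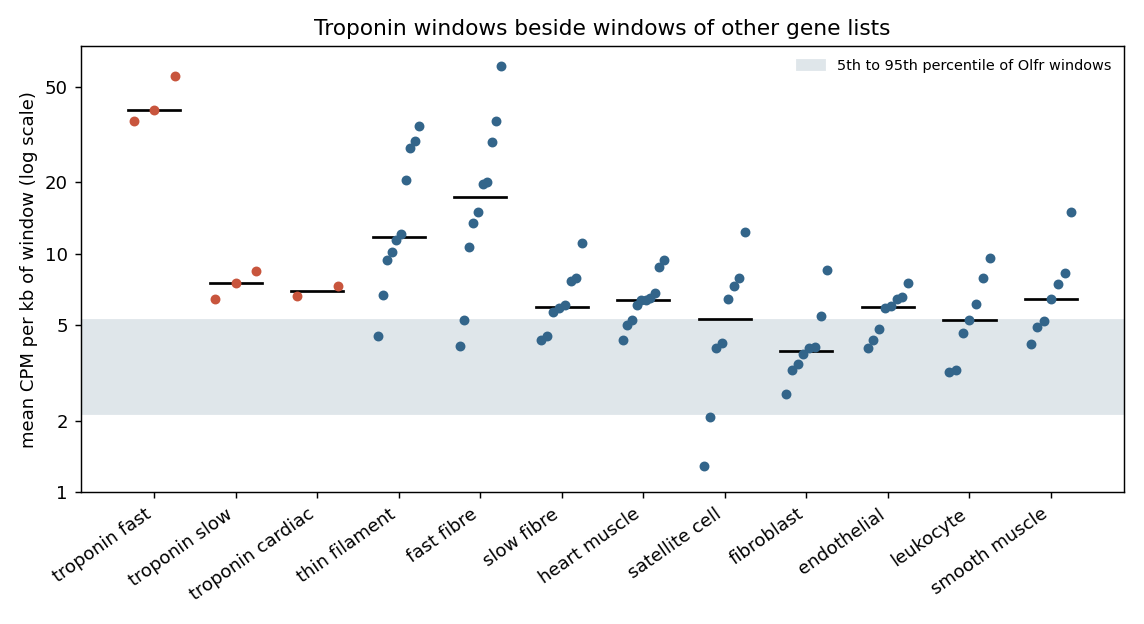
Mean level over the 6 libraries, in CPM per kb on a log axis, of each troponin gene and of the genes in 9 further lists, one point per gene, with the median of each list as a bar and the 5th to 95th percentile of Olfr windows as a band. The fast troponins lie among the most open thin filament and fast fibre genes, and the slow and cardiac troponins lie level with slow fibre and heart genes and with genes of several other cell types.

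The windows of Acta1, Actc1, Myh1, Myh4, Myh7 and Mylpf overlap that of another gene. So does that of Msc, the lowest of the satellite cell list at 1.29 CPM per kb. Their values are uncertain to that extent and may be too low. No gene of these 4 muscle lists was called with Yap-shRNA, in either direction, by edgeR or DESeq2. Unadjusted p-values under 0.05 were found for 1 thin filament gene, Lmod2, which nucleates actin filaments (log2 fold change -0.39 ± 0.16 SE), and for 1 heart gene, Myl7 (0.34 ± 0.16 SE), each with an edgeR adjusted p of 0.946. No fast or slow fibre gene passed it. The smallest p belonged to Mylpf, the fast regulatory light chain (-0.28 ± 0.14 SE, edgeR adjusted p = 0.946), and to Myoz2, a Z-disc protein of slow fibres (-0.30 ± 0.18 SE, edgeR adjusted p = 0.946). The median log2 fold changes were -0.03 for the thin filament, -0.15 for fast fibre, 0.04 for slow fibre and 0.16 for heart genes, beside -0.01 over all windows.

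None of the satellite cell, fibroblast, endothelial, leukocyte or smooth muscle genes was called by edgeR or DESeq2, and 1, 2, 2, 1 and 0 of them had an unadjusted p under 0.05. Their smallest p-values were those of Calcr (log2 fold change -0.37), Col1a1 (0.39), Kdr (-0.59), Csf1r (0.32) and Myocd (-0.15), with edgeR adjusted p-values of 0.946, 0.946, 0.909, 0.946 and 0.951. The summed CPM of the fibroblast list ran from 218 to 251 with LacZ-shRNA and from 242 to 301 with Yap-shRNA, and that of the 7 leukocyte genes with a window from 126 to 141 and from 139 to 148. Those of heart genes ran from 315 to 343 and from 331 to 352. These 3 lists had higher medians with Yap-shRNA, as Tnnt2 and Tnni1 had, and their part in those values was not tested. The satellite cell list summed to 143 to 170 CPM with LacZ-shRNA and 139 to 152 with Yap-shRNA, the endothelial list to 248 to 270 and 237 to 259, and the smooth muscle list to 249 to 293 and 274 to 280.

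The windows most like each class over the 6 libraries were sought among 6950 non-overlapping windows with a mean count of at least 200. The summed fast genes were matched best by Gatd1, Hdgf and Chd7 (r = 0.998, 0.995 and 0.993), the slow genes by Etnk2, Uap1l1 and Ankdd1a (0.994, 0.993 and 0.990) and the cardiac genes by Sh2b2, Gfi1b and Adcy7 (0.998, 0.994 and 0.993). Such likeness was common, since 596, 352 and 336 windows had r above 0.9 with the fast, slow and cardiac sums, and with 6 libraries it is a description only.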

How the data were processed

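Nuclei of 3 LacZ-shRNA and 3 Yap-shRNA pools were assayed by ATAC-seq. Per the methods and the labels, the authors mapped reads to GRCm38 (BWA 0.7.17), discarded duplicates (SAMtools 1.8), called peaks (MACS 1.4.2-1) and counted reads (featureCounts 1.5.0). The deposited values are raw counts per peak and per TSS window, not normalized, and the lowest row mean in either table was 10. Reads that map to repeats, and the transposase offset, could not be examined in these counts.

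Windows were rebuilt from the GENCODE annotation of the same build as the union of 1 kb to each side of every start, and all 49366 identifiers and symbols matched. Of these, 10344 overlap the window of another gene. Counts were tested over each whole table with edgeR 4.0.16 (R 4.3.3) by glmQLFit and glmQLFTest, with group as the sole term, scaling by TMM factors and a threshold of 0.05 on p-values adjusted by the Benjamini-Hochberg method. CPM used TMM library sizes. Differences between genes used log2 CPM per kb with a prior count of 2 and exact permutation tests over libraries (Python 3). Depth was 3326803 to 10319467 counts per library over windows and 2588520 to 6871176 over peaks. p-values measure the spread between pooled replicates.

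The 8 members, the 9 gene lists and the motifs were chosen with earlier results of these data known. Text names all members, the peaks within 1 kb of a start of a member, in each list the genes past the threshold and the gene with the smallest p, and the 3 windows most like each class. Genes outside that rule (neighbours, other peaks and list genes given as levels) were chosen after their values were seen. Alternatives were a likelihood-ratio test, DESeq2 1.42.0, RLE factors, library size alone, a mean count of at least 50, non-overlapping windows, a replicate block, other peak distances, other level scales and leaving out each library. Subtraction of the closed level, per kb or over whole windows, was added after seeing the data.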

Additional observations from a re-analysis of the deposited data

How the results depend on the processing

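No troponin window and no locus peak passed the threshold under any alternative tried. Tnnc1 had no adjusted p in DESeq2 and was not part of the fit of non-overlapping windows. The lowest edgeR or DESeq2 adjusted p over all alternatives was 0.190 for the windows and 0.296 for the peaks. Tnni1, Tnnt2 and Tnni2 kept the sign of their log2 fold change in each of these fits. Without 1 library at a time the values were 0.22 to 0.36 for Tnni1, 0.18 to 0.42 for Tnnt2 and -0.31 to -0.04 for Tnni2. Smaller values changed sign. With library size alone as scaling, which moved the median of all windows from -0.01 to 0.05, Tnnt3 had 0.049, Tnnc2 0.0076 and Tnni3 0.022. Without 1 library, Tnnt3 ran from -0.18 to 0.071, Tnnc2 from -0.19 to 0.0054, Tnnt1 from -0.018 to 0.15, Tnnc1 from -0.19 to 0.021 and Tnni3 from -0.14 to 0.075.

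The fast over slow differences kept their sign throughout. Compared as whole windows, not per kb, they were 1.62 for troponin I, 2.49 for T and 2.53 for C. The Tnni1 over Tnni3 difference was 0.72, and each had an exact permutation adjusted p of 0.0391. The exact p of the fast over slow pairs stayed at its smallest value, 0.03125. Their adjusted p fell because Tnni1 over Tnni3 also reached that value, on a scale that includes the longer window of Tnni1. Tnnt1 over Tnnt2 turned to 0.17. With the closed level subtracted and no division by length they were 2.25, 3.39 and 3.21, Tnni1 over Tnni3 was 0.97, again with an exact adjusted p of 0.0391, and Tnnt1 over Tnnt2 was 0.10. With the closed level subtracted per kb, every difference kept its sign and its side of the threshold. From peaks within 1 kb of a start, troponin C gave 1.76 (exact permutation p = 0.03125 for a single pair), and the other pairs could not be given because no such peak of the table lay at one or both genes. Without 1 library, the level differences were 2.61 to 2.77, 2.42 to 2.51, 2.31 to 2.44, 0.27 to 0.42 and -0.24 to -0.13 for the 5 pairs, and their shifts with Yap-shRNA -0.50 to -0.26, -0.18 to 0.036, -0.13 to 0.21, 0.16 to 0.44 and -0.38 to -0.16. With 5 libraries the exact test cannot pass the threshold.

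The labels do not say that a replicate number pairs a LacZ-shRNA with a Yap-shRNA pool, though the vectors went to opposite limbs. Same-number r over windows was 0.17, -0.17 and 0.09. With 3 libraries per group these values cannot decide whether the numbers pair the samples. A replicate block left 0 windows called among the members, with 0.32 for Tnnt2 (edgeR adjusted p = 0.988), and not every sample correlated best with its own number. Without LacZ-shRNA replicate 1 the calls over all windows rose from 11 to 157, and the cause was not tested. Depth limits Tnnc1 most, at 59 to 152 counts per library.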
